A study of Mus musculus with 6 samples.

Results

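The mouse hairpin Mir670 yields a pair of microRNAs (miRNAs), miR-670-5p from its 5′ arm and miR-670-3p from its 3′ arm. Each arm had 1 probe among the 1118 mouse miRNA probes of the array, found by its mouse name, with 4 spots per array. The 6 arrays measured RNA from exosomes, small vesicles released into the culture supernatant of purchased mouse endothelial cells, whose strain and genotype the labels do not give. Both groups grew in F-12k medium with 12% fetal bovine serum, endothelial growth supplement and heparin, and were then kept for 48 h at 0.9 mM (normal, 3 arrays) or 3.5 mM (high, 3 arrays) inorganic phosphate. The cells came from 1 commercial source, and the labels do not say whether a group's arrays hold RNA of separate cultures, so the p-values measure only the spread between these arrays, which may be technical.

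A miRNA is cut from a folded precursor, and either arm of the hairpin can be loaded into an Argonaute protein. The loaded arm pairs with messenger RNAs mainly through its seed, bases 2 to 8, and lowers their translation or stability. Vesicles can carry miRNAs between cells, and the series asks which of them endothelial vesicles hold at raised phosphate, a setting linked to calcification of arteries in kidney failure. From general knowledge of the study and not from the data used here, the 3p arm is the one its authors followed as a calcification candidate, with the growth factor gene Igf1 as its proposed target.

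The hairpin lies on the minus strand of chromosome 2 at chr2:94261300-94261399 (GRCm38.p6, RefSeq), within the span of its host gene, the long non-coding RNA Mir670hg at chr2:94160636-94265103. Whether that place is exonic or intronic was not determined here. In the hairpin below, capitals mark both mature arms, and in each arm, capitals mark the seed that selects targets.
Mir670 hairpin: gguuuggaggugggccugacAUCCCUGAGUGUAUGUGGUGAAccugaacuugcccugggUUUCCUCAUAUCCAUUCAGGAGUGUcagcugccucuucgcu
mmu-miR-670-5p: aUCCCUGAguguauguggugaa
mmu-miR-670-3p: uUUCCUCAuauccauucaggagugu
The 5p arm spans chr2:94261358-94261379 and has 22 bases, and the 3p arm spans chr2:94261316-94261340 and has 25. Only 21 of the 938 mature sequences matched between RefSeq and the array, the 3p arm included, are as long as 25 bases or longer. In the predicted fold of the 100-base hairpin (RNAfold, -44.1 kcal/mol), 19 of the 22 bases of the 5p arm pair with bases of the 3p arm. The G and C content is 45.5% for the 5p arm and 40% for the 3p arm, against a median of 50% over the 938.

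The arms have different seeds. Among the 1679 mature mouse names in the RefSeq table, no other sequence had either seed at bases 2 to 8. The seed letters of the 5p arm do occur at the very start of the miR-125 family, shifted by 1 base. The lines below are shown for that overlap, with the shared run of 8 bases in capitals.
mmu-miR-670-5p: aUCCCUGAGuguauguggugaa
mmu-miR-125a-5p: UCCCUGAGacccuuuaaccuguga
mmu-miR-125b-5p: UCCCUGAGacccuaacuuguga
mmu-miR-351-5p: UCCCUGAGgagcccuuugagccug
Probes for these 3 miRNAs, which were chosen for this overlap after their values could be seen, measured 1124.75 to 1844.5 units for miR-125a-5p, 363.25 to 718.25 for miR-125b-5p and 116.75 to 274 for miR-351-5p, in foreground minus background. The longest run that the 5p arm shared with any mature sequence on the array was 9 bases, with miR-1187. For the 3p arm it was 8 bases, shared with miR-206-5p and miR-26b-5p. The probe of miR-206-5p read 30.5, 47.75 and 29.5 units in normal and 78, 55.25 and 79.5 units in high phosphate. That of miR-26b-5p read 12015, 5971.75 and 7293.75 units in normal and 3755.25, 5406.75 and 5032.25 units in high phosphate. The seed letters of the 3p arm also occur in miR-804, from base 10, and its probe read 1 to 5.75 units. The letters of the capture probes are not in the files used here, and how far related sequences bind these probes was not tested.

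The 5p arm was above the background percentile used here on every array. In foreground minus local background, the mean of its 4 spots was 4766.5, 5350.75 and 8940.5 units in normal phosphate replicates 1, 2 and 3. In high phosphate the values were 8312.5, 4862.5 and 3922.5 units. The groups overlapped: 1 array of each, normal phosphate replicate 3 and high phosphate replicate 1, stood above the other 4. Among the 1118 mouse probes, miR-670-5p ranked between 45 and 75, and 3.94% to 6.62% of the mouse probes were brighter. The 95th percentile of 57 probes for miRNAs of mouse viruses served as background, and miR-670-5p stood at 219% to 312% of it. Of the 57 viral probes, 1 or 2 were nevertheless at least as bright as miR-670-5p on each array. A rank or a comparison with a control probe also carries the probes' own affinities, which were not measured.

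The 3p arm was dim. Its spots averaged 558.75, 669 and 430.25 units in normal phosphate replicates 1, 2 and 3. In high phosphate they averaged 926.25, 703.75 and 937.75 units. Before scaling, each high phosphate array was thus above each normal phosphate array, but normal replicate 2 and high replicate 2 were separated by 34.75 units only. Its rank among the mouse probes was 238 to 296 in normal and 198 to 240 in high phosphate, so the ranks of the groups overlapped.

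The controls put the 3p signal in a range that probes without a mouse target also reached. On each array it was 13.3% to 57.6% of the 95th percentile of the viral probes, and 9 to 13 of the 57 viral probes were at least as bright. One of 7 negative control probes, hsa_negative_control_3, was brighter than miR-670-3p on all 6 arrays, at 689.25, 1440.25 and 1261.25 units in normal and 977.5, 1311.25 and 1090 units in high phosphate. The other 6 negative controls stayed at or under 159 units. The signal was nevertheless far above empty positions: the dimmest 3p spot read 406 units, and the brightest of 1132 Empty spots on any array read 9. Of 2276 probes without a name in the files, 11.6% to 20.7% were at least as bright as miR-670-3p, against 2.64% to 4.35% for miR-670-5p.

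**Figure D1:**
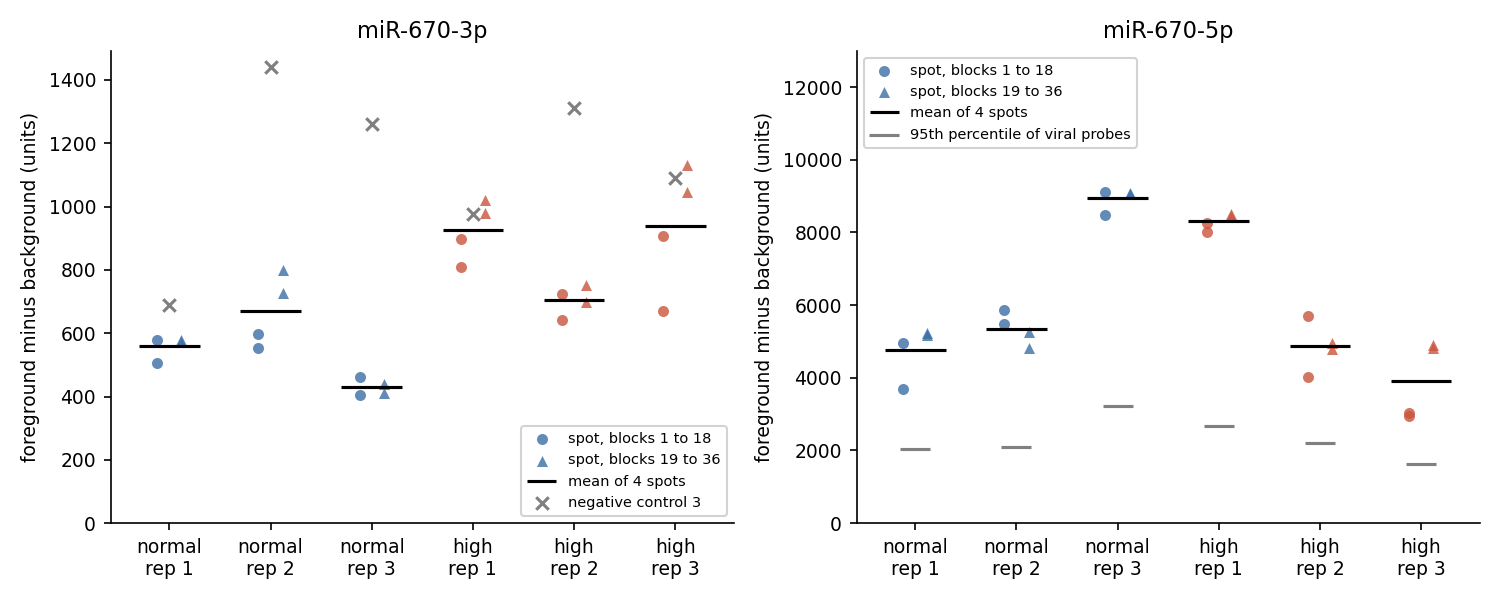
Spots of both arms in foreground minus background (units, linear axis from 0) on each array; circles and triangles are spots in blocks 1 to 18 and 19 to 36, bars their mean. Crosses in the 3p panel are negative control 3, and short grey lines in the 5p panel are the 95th percentile of the viral probes. The negative control lies above the mean of miR-670-3p on all 6 arrays, and miR-670-5p lies above the viral percentile on all 6.

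**Figure D2:**
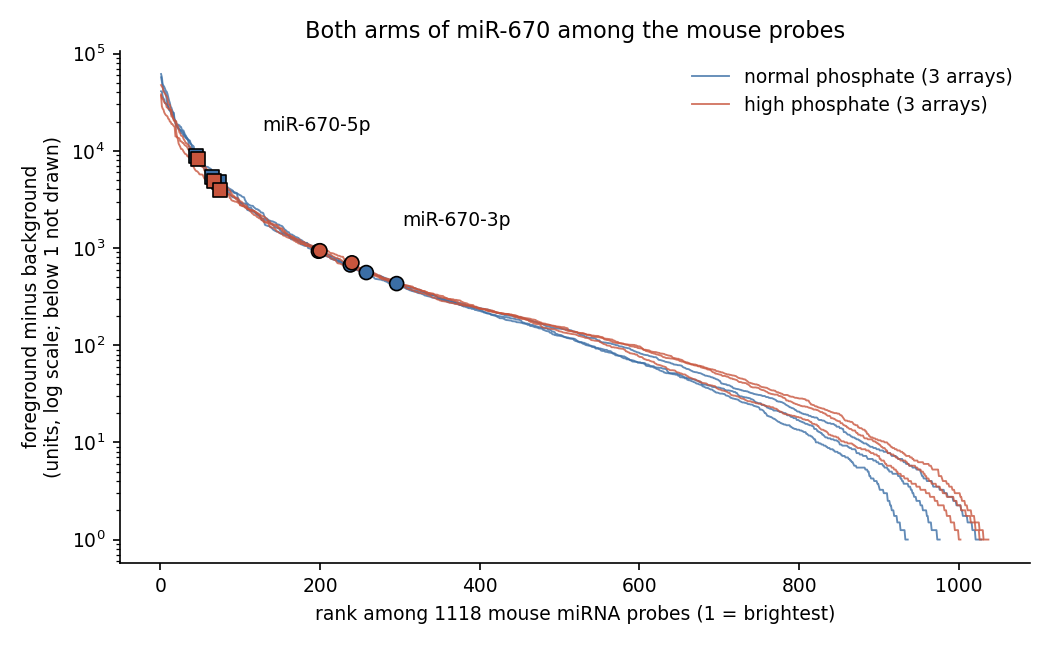
Foreground minus background of all 1118 mouse probes against their rank on each array (units, log axis), with miR-670-5p as squares and miR-670-3p as circles. The 5p arm sits at ranks 45 to 75 and the 3p arm at ranks 198 to 296.

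Spots of a probe repeat 1 hybridisation and are not replicates of a condition, but they give the reading error of each array. For miR-670-3p the coefficient of variation over the 4 spots was 6.07% to 21.5%, widest in high phosphate replicate 3, whose spots ran from 669 to 1131 units. Normal phosphate replicate 2, the highest of its group, ran from 552 to 801 units, which covers all spots of high phosphate replicate 2 (641 to 753). The gap between those arrays, on which the separation of the groups rests, was therefore smaller than the larger of their spot SDs, 115.2 units. In the order of the 6 arrays by miR-670-3p, spots did not overlap between normal replicate 3 and normal replicate 1, nor between high replicate 2 and high replicate 1. The other neighbours overlapped.

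For miR-670-5p the spot variation was 2.65% to 27.75%, again widest in high phosphate replicate 3. There the spots in blocks 1 to 18 averaged 2980.5 units and those in blocks 19 to 36 averaged 4864.5 units, a ratio of 1.63. The median of that ratio over the 129 mouse probes bright enough to be tested was 1.07 on that array. Of these, 22, with miR-670-5p itself counted, differed between the block sets at least as much. For miR-670-3p the same ratio was 1.38 on that array and 1.33 in normal phosphate replicate 2. With spots of blocks 1 to 18 alone, a split chosen after the data were seen, the 3p arm measured 542.5, 574 and 434 units in normal and 853, 682 and 787.5 units in high phosphate. With blocks 19 to 36 the groups overlapped, since normal replicate 2 stood at 764 units and high replicate 2 at 725.5. In the order of the arrays by miR-670-5p, the only neighbours without overlapping spots were normal replicate 2 and high replicate 1, so the 6 arrays form a lower set of 4 and a higher set of 2 that cross the groups.

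High phosphate was then compared with normal phosphate. The 3p arm averaged 553 ± 119 units (SD, n = 3) at normal phosphate before scaling. At high phosphate it averaged 856 ± 132 units (SD, n = 3), a ratio of 1.55. A 2-sided exact permutation test gave p = 0.1, and 3 against 3 arrays cannot give less. Of all 1118 mouse probes, 59 (5.28%) had every high phosphate array above every normal phosphate array in these units, as did 32 (5.43%) of the 589 probes at or above 50 units on all arrays. After normexp background correction and quantile normalization, the log2 levels of miR-670-3p were 9.33, 9.51 and 8.96 in normal and 9.98, 9.50 and 9.96 in high phosphate. On that scale normal replicate 2 was marginally above high replicate 2, and the groups overlapped, whereas 44 (3.94%) of the 1118 probes had all high phosphate arrays on top. The means were 9.26 ± 0.28 (SD, n = 3) at normal and 9.81 ± 0.27 (SD, n = 3) at high phosphate. Their log2 difference of 0.55 had a 2-sided exact permutation p of 0.2.

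The 3p arm did not enter the main test, which took mouse probes above the 95th percentile of the viral probes on at least 3 of 6 arrays. In the limma fit over all 1118 mouse probes its log2 difference of 0.55 had an SE of 0.20 and a 95% interval from 0.03 to 1.07, or 1.46-fold with an interval from 1.02 to 2.10. Its unadjusted p of 0.0425 ranked 56th of 1118, and it did not pass after Benjamini-Hochberg adjustment (limma, adjusted p = 0.776). In that fit 0 of 1118 probes passed (0.0%), and 63 (5.64%) had an unadjusted p under 0.05, of which 36 (3.22% of all) were higher in high phosphate. Scaling to the control spots raised the log2 difference, to 1.21 with the spike controls and 1.22 with the Hy3 dye spots, in both cases without overlap of the groups (exact permutation p = 0.1). Beside this, the controls themselves were dimmer in high phosphate, as the mean log2 signal of the spike controls was 10.33 ± 0.16 (SD, n = 3) at normal and 9.67 ± 0.26 (SD, n = 3) at high phosphate. For the Hy3 spots it was 9.57 ± 0.18 and 8.90 ± 0.15 (SD, n = 3). The same scaling moved the median log2 difference of the 129 tested probes from -0.02 to 0.45 with the spike controls and 0.46 with the Hy3 spots. Relative to the median of the tested probes, the difference of miR-670-3p was 0.57 as reported and 0.76 with either control scaling. Any scaling of the same normexp-corrected spot means by 1 factor per array gives that last value by construction. With the authors' deposited values, which start from spot medians, it was 0.88.

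The 5p arm averaged 6353 ± 2260 units (SD, n = 3) at normal phosphate before scaling. At high phosphate it averaged 5699 ± 2312 units (SD, n = 3), and a 2-sided exact permutation test gave p = 0.6. The normalized log2 levels were 12.17, 12.44 and 13.04 in normal and 12.99, 12.36 and 12.17 in high phosphate, so the groups covered nearly the same range. The 95% interval of the log2 difference, -0.05 (SE 0.31), ran from -0.78 to 0.69. As a fold this was 0.969 with bounds of 0.582 and 1.61 (limma, adjusted p = 0.999), so that a change within these bounds was not excluded by the 6 arrays. Of the 129 probes tested, limma called 0 (0.0%), and 9 (6.98%) had an unadjusted p under 0.05. With scaling to the spike controls or the Hy3 spots the difference of miR-670-5p turned to 0.49 and 0.50, and without normal replicate 3 it turned to 0.20, all without passing. Relative to the median of the tested probes, the difference of miR-670-5p was -0.03 as reported and 0.04 with either control scaling.

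**Figure D3:**
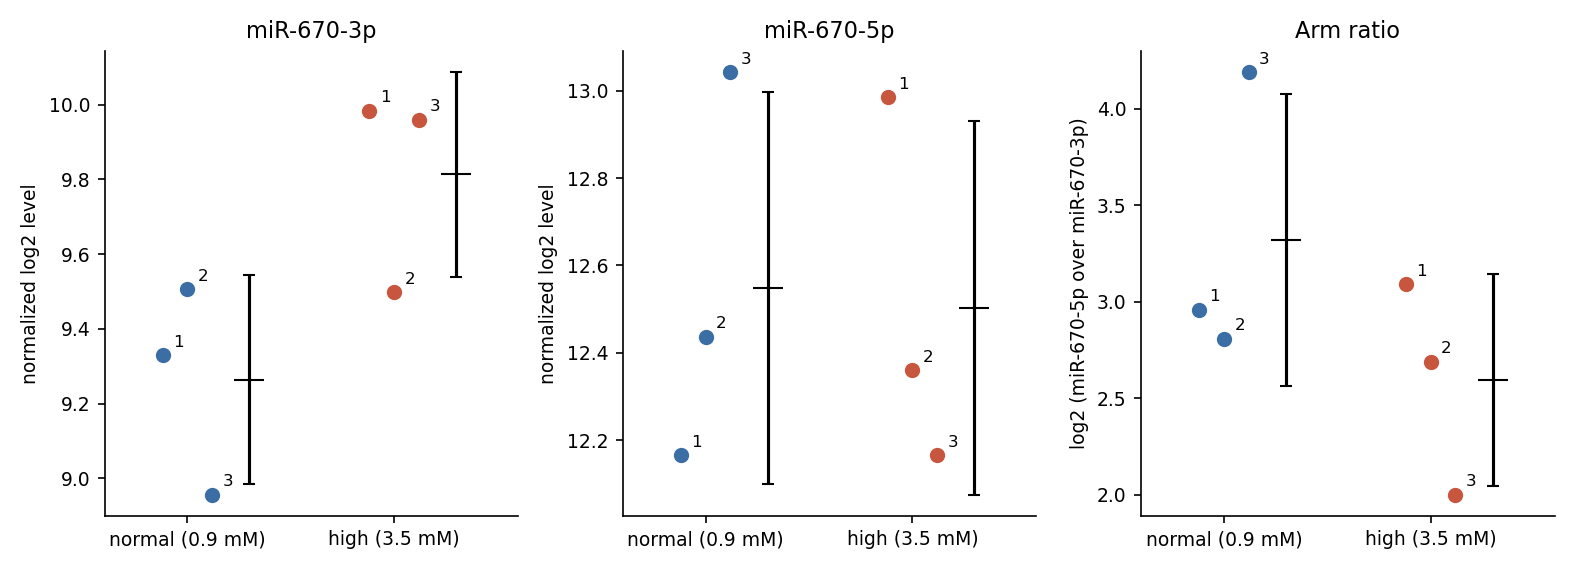
Normalized log2 levels of each arm and the log2 ratio of miR-670-5p over miR-670-3p before normalization, for each array (points, numbered by replicate) with the mean and SD of each group of 3 beside them. The groups overlap in each of the panels, and normal phosphate replicate 3 has the lowest 3p level and the highest 5p level and ratio.

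The arm ratio needs no scaling between arrays, though its size depends on the affinities of both probes and only its differences between arrays are compared here. Its denominator, miR-670-3p, was below the background percentile on all 6 arrays, so the ratio is a ratio of signals and no measure of arm use. On the log2 scale, after background correction, miR-670-5p exceeded miR-670-3p by 2.96, 2.81 and 4.19 in normal phosphate replicates 1, 2 and 3. In high phosphate the log2 ratios were 3.09, 2.69 and 2.00. The highest and lowest ratios came from opposite groups. The mean log2 ratio was 3.32 ± 0.76 (SD, n = 3) at normal and 2.59 ± 0.55 (SD, n = 3) at high phosphate. Their difference of -0.73 lay within the spread between arrays (2-sided exact permutation p = 0.4). Without normal replicate 3 the difference was -0.29, and without high replicate 3 it was -0.43.

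In normal replicate 3 the ratio was extreme from both sides, with the highest 5p and the lowest 3p signal of all arrays. High replicate 3 was the reverse, with the lowest 5p and the highest 3p signal before scaling. The log2 ratio of miR-670 ranged over 2.31 across arrays in foreground minus background. Among 107 mouse hairpins with both arms at or above 50 units on every array the median range was 1.54, and 20 of the 107 ranged more widely than miR-670. Its difference between the groups in these units, -0.82, was exceeded in size by 21 of the 107, and the ratios did not overlap between the groups for 15 of them, miR-670 not included.

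The authors' deposited table gave miR-670-3p a fold of 1.59, high over normal phosphate, with a p-value of 0.0499 and a false discovery rate of 0.794. The authors' deposited values behind it, normalized intensities relative to a factor for each array, were 1.78, 1.93 and 1.24 in normal and 2.94, 2.07 and 2.85 in high phosphate. On this scale the groups did not overlap, which held for 48 (5.11%) of 940 mouse probes in the same direction, and normal replicate 2 and high replicate 2 were again the closest. Of 1029 probes with a p-value in the authors' deposited table, 39 (3.79%) were under 0.05, and miR-670-3p was the last of them in order of p. With a fold of at least 1.5 as well, 18 (1.75%) were higher in high phosphate, and miR-670-3p was 14th of these by fold in the authors' deposited table. The false discovery rate of 0.794 was the lowest in the authors' deposited table and was shared by 495 probes. For miR-670-5p the authors' deposited table gave a fold of 0.898 and a p-value of 0.75.

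**Figure D4:**
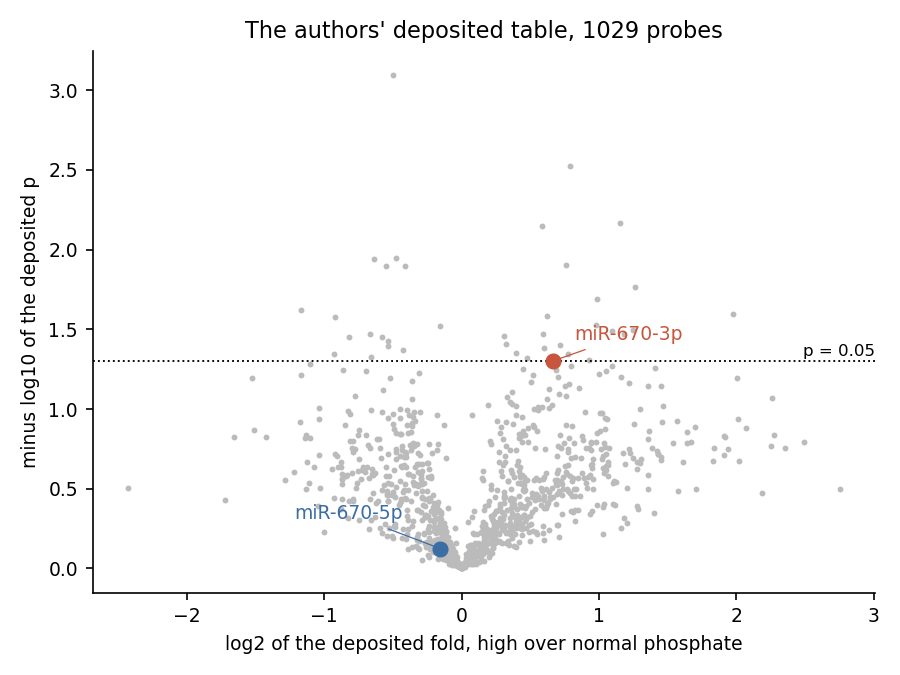
Log2 of the fold (high over normal phosphate) against minus log10 of the p-value for the 1029 probes of the authors' deposited table, with both arms of miR-670 marked and a dotted line at a p of 0.05. The 3p arm, with a fold of 1.59 and a p of 0.0499, lies on the line, and the 5p arm, with a fold of 0.898, lies near the bottom.

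The probes whose normalized log2 levels, centred on their own mean, lay nearest to those of each arm over the 6 arrays were found by root-mean-square difference. Nearest to miR-670-3p was miR-219b-5p at 0.137, then miR-182-5p, a member of the epithelial and sensory miR-183 cluster, at 0.228, and miR-5625-3p at 0.235, against a median of 0.498 over the 129 tested probes. The log2 levels of miR-219b-5p were 12.27, 12.16 and 11.86 in normal and 12.79, 12.55 and 12.67 in high phosphate, with normal replicate 3 lowest, as for miR-670-3p. Its log2 difference was 0.57 (SE 0.20, limma adjusted p = 0.518), and with scaling to the Hy3 spots, where the median of the tested probes was 0.46, it was 1.08 and passed (limma adjusted p = 0.0473). This likeness was read from the same arrays that are compared and is a description.

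Nearest to miR-670-5p was miR-142a-5p, known from leukocytes, at 0.121, then miR-184-3p at 0.228 and miR-224-3p at 0.241, against a median of 0.476 over 128 probes. The log2 levels of miR-142a-5p were 11.34, 11.51 and 12.06 in normal and 11.78, 11.35 and 11.06 in high phosphate, with normal replicate 3 and high replicate 1 on top, as for miR-670-5p. Its log2 difference was -0.24 (SE 0.28, limma adjusted p = 0.873). Over the whole marker list, both endothelial probes, miR-126a-3p and miR-126a-5p, passed the brightness filter. So did 7 of 11 markers of other cells, among them the red cell miRNA miR-451a and the smooth muscle miRNA miR-143-3p. The smooth muscle miRNA miR-145a-5p, the leukocyte miRNAs miR-142a-3p and miR-223-3p and the epithelial miRNA miR-200c-3p did not pass. Of all 1118 mouse probes, 129 passed. The summed signal of the 2 endothelial probes was 16243.2 to 18149.8 units in normal and 11923.5 to 17479.8 units in high phosphate. For the 11 markers of other cells the sum was 178199 to 225825 units in normal and 134014 to 180944 units in high phosphate. None of the 11 was at 0, and their dimmest value was 202.25 units for miR-200c-3p. These sums cover different numbers of probes, whose affinities were not measured. The part of other cells or of serum in the miR-670 signal was not tested.

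The neighbouring hairpin Mir129-2 lies on the same strand, 19846 bases from Mir670 and also within the span of Mir670hg. Its products, and miR-129-1-3p from the related hairpin elsewhere in the genome, were all too dim for the test. The probe of miR-129-2-3p read 644, 521 and 840.5 units in normal and 473, 691 and 407.25 units in high phosphate. As for miR-670-5p, normal replicate 3 was its highest and high replicate 3 its lowest array, while high replicate 1 was low for miR-129-2-3p and high for miR-670-5p. The probe of miR-129-5p, the opposite arm, read 54.25 to 83.25 units. Its name carries no hairpin number, and which hairpin its signal came from was not determined. In the fit without a filter the log2 differences were -0.38 for miR-129-2-3p, -0.23 for miR-129-5p and -0.20 for miR-129-1-3p. Of these, 0 of 3 passed (limma, lowest adjusted p = 0.776) or had an unadjusted p under 0.05. Of all 1118 probes, 0 passed and 63 (5.64%) had an unadjusted p under 0.05.

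Of 7 miRNAs reported to target Igf1, 3 were bright enough to be tested, and limma called 0 in either direction, 0 of them also before adjustment. Of all 129 tested probes, limma called 0, and 9 (6.98%) had an unadjusted p under 0.05. The means of all 3 were lower at high phosphate (median log2 difference -0.26). Of the 129 tested probes, 67 were lower and 62 higher by their means (median -0.02). The muscle miRNA miR-1a-3p had a log2 difference of -0.75 (SE 0.33, limma adjusted p = 0.698), miR-206-3p of -0.13 (SE 0.19) and miR-29a-3p of -0.26 (SE 0.19). The last of these belongs to the family that restrains collagen genes. Before scaling, miR-1a-3p read 23624.75, 14505 and 15349.75 units in normal and 7171.5, 10301 and 8720.75 units in high phosphate, without overlap. For miR-29a-3p the values were 2999, 3512.75 and 2876.5 units in normal and 2633, 2257.75 and 2524 units in high phosphate, also without overlap. The groups overlapped for miR-206-3p. How many of all probes were lower in this way was not counted. Scaling to the spike controls or the Hy3 spots turned miR-206-3p and miR-29a-3p positive, at 0.32 to 0.35, below the median of all tested probes under those scalings, while miR-1a-3p stayed negative. The other 4 were at or under 2714 units. Over all 7, the fit without a filter gave a median log2 difference of -0.38 with 1 of 7 above 0, where 545 of all 1118 probes were above 0. In that fit 1 of the 7 had an unadjusted p under 0.05, as did 63 of all 1118 (5.64%), and 0 passed (limma).

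Of 12 miRNAs reported to promote calcification of the vessel wall or of bone-forming cells, 1 was tested. This was miR-221-3p, a regulator of smooth muscle growth, with a log2 difference of -0.71 (SE 0.54, limma adjusted p = 0.853). Its 3 arrays in normal phosphate read 6321.25, 2501 and 2883 units and those in high phosphate 922.75, 2501.75 and 3053 units, so the groups overlapped. The other 11 were too dim, at or under 1470 units, and 5 of the 12 stayed under 50 units on all arrays, among them miR-2861, reported in bone formation, and miR-32-5p. In the fit without a filter 2 of the 12 had a higher mean in high phosphate, against 545 of all 1118 probes. The median log2 difference of the 12 was -0.17. Of the 12, 0 had an unadjusted p under 0.05 (limma), against 63 of all 1118 probes (5.64%). With a list of only 12, a count of 0 cannot be told apart from that share.

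**Figure D5:**
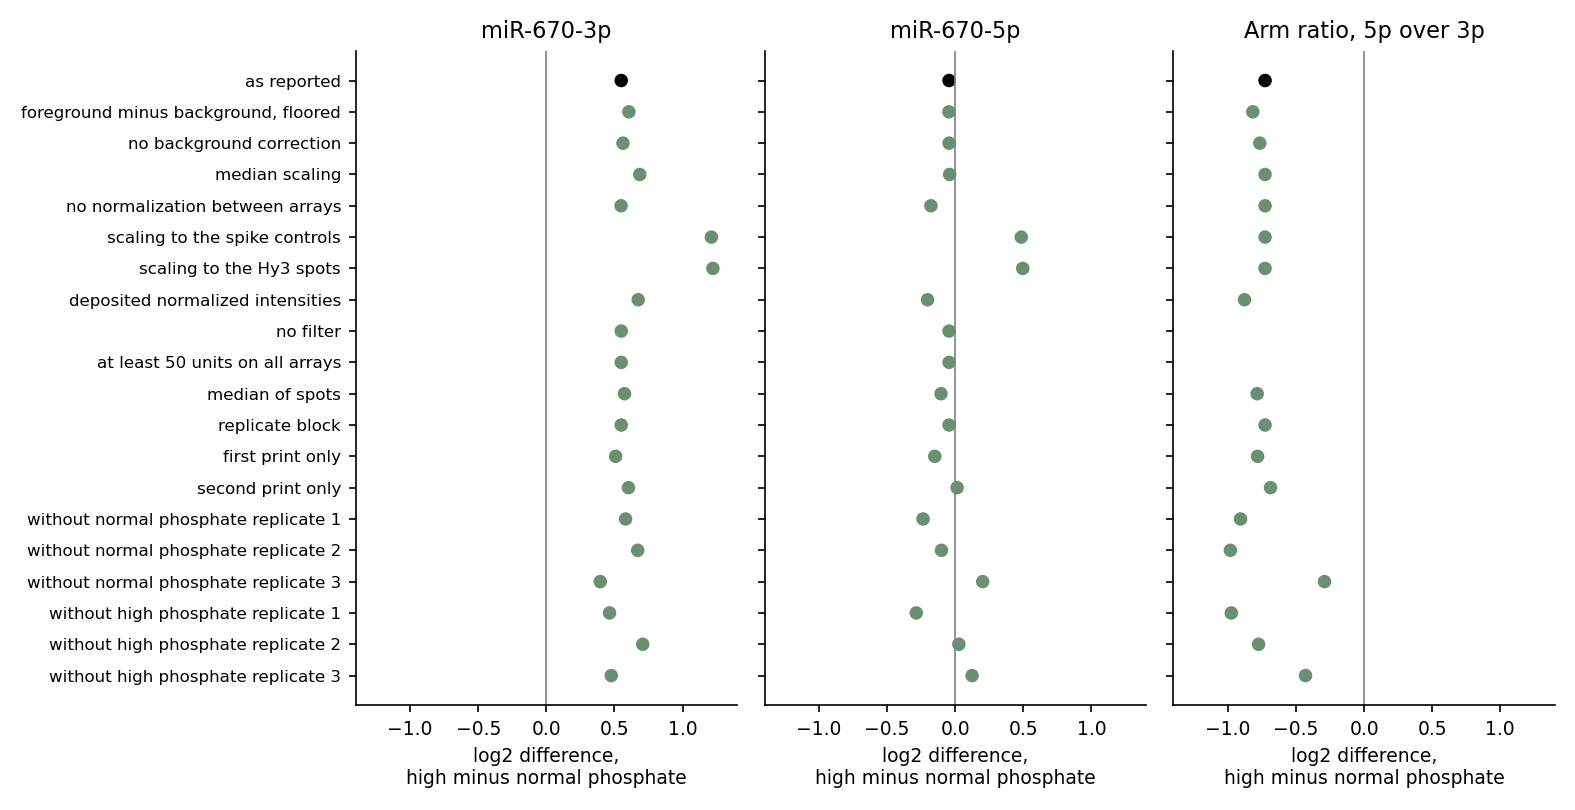
Log2 difference, high minus normal phosphate, of each arm and of the arm ratio under the reported and the alternative settings (points; black is the value as reported, and filters do not apply to the ratio). The 3p differences lie between 0.40 and 1.22, those of 5p lie on both sides of 0, and those of the ratio lie between -0.98 and -0.29.

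Over the settings tried, the sign of the miR-670-3p difference stayed positive in all 19 alternatives, from 0.40 without normal replicate 3 to 1.22 with scaling to the Hy3 spots. The changes of filter and the replicate block use the reported levels, so they leave the difference at 0.55 by construction. The exact tests used for most of the alternatives cannot go below 0.1, or 0.25 with the replicate block. The limma fits that included miR-670-3p gave an adjusted p of 0.776 without a filter and 0.635 for probes at or above 50 units on all arrays. The difference of the arm ratio stayed negative throughout, although scaling the same normexp-corrected spot means by 1 factor per array and the replicate block leave it unchanged by construction.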

How the data were processed

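Per the file headers, the authors deposited the intensity of each spot of 1-colour Hy3 arrays, both raw and after subtraction of its local background. The authors' deposited normalized intensity equalled the median over the spots of a probe divided by a factor of 319 to 344.5 units per array, found by setting it against the spots. The authors also deposited a fold (ratio) and a p-value with a false discovery rate per probe, without naming the test. The sources used here do not name the scanner.

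Spots were corrected with normexp (offset 50, limma 3.58.1, R 4.3.3), averaged per probe, quantile normalized over mouse and viral miRNA probes and taken to log2. Mouse probes above the 95th percentile of the viral probes (1626.7 to 3232.7 units) on at least 3 arrays were tested, 129 of 1118, with lmFit and eBayes and Benjamini-Hochberg adjustment at 0.05. The fit was tested on simulated data. Single values were compared with exact permutation tests (scipy 1.17.1), and hairpins folded with RNAfold 2.7.2. The number of arrays limits the precision. Sequences are from RefSeq (GRCm38.p6). The rule for named probes took both arms, the 3 nearest probes per arm, probes of the same seed and 3 lists. The members and lists were chosen with earlier results of these data known. Alternatives covered background, normalization, filter, spots, the replicate number and leaving out each array.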

Additional observations from a re-analysis of the deposited data

How the results depend on the processing

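The number of mouse probes called was 0 under all alternatives except scaling to the Hy3 spots, which gave 7 of 129, miR-219b-5p (1.082) among them, and it was 0 without each array in turn (limma, lowest adjusted p 0.0666 to 0.901). The difference of miR-670-5p turned to 0.485 with the spike controls, 0.496 with the Hy3 spots and 0.014 with blocks 19 to 36, the last chosen after seeing the data, and leaving out 1 array at a time gave -0.286 to 0.202. Scaling to the controls moved the median of all tested probes to 0.448 and 0.459. The cause of the other turns was not tested. Such omissions gave 0.396 to 0.708 for miR-670-3p and -0.982 to -0.291 for the arm ratio. The sign of some named probes turned: with the spike controls to 0.339 for miR-206-3p, 0.323 for miR-29a-3p, 0.33 for miR-142a-5p and 0.136 for miR-184-3p, with the Hy3 spots to 0.35, 0.335, 0.341 and 0.147, and with blocks 19 to 36 to 0.003 for miR-206-3p and 0.049 for miR-29a-3p. For miR-182-5p and miR-224-3p it turned to -0.023 and -0.163 with median scaling, -0.161 and -0.3 without normalization, and -0.18 and -0.298 with the deposited values, and for miR-224-3p to -0.158 and -0.066 without 1 array each, within a range of -0.158 to 0.223 over all such omissions. The replicate numbers are not shown to pair the arrays (correlation of deviations 0.222, 0.026 and -0.184). With the replicate block, the difference was -0.045 for miR-670-5p (limma adjusted p = 0.999), 0.55 for miR-670-3p (exact sign-flip p = 0.5) and -0.727 for the arm ratio (exact sign-flip p = 0.75, the smallest possible being 0.25), and 0 probes were called.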
